A study of Mus musculus with 6 samples.

Results

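Genes of Toll-like receptor sensing were followed in prostate luminal cells of mice that overexpress the growth factor CSF1. They were chosen by name out of 24346 gene symbols in the tables, and all 10 are listed there. They are the receptor genes Tlr1, Tlr2, Tlr3, Tlr4, Tlr5 and Tlr7, the co-receptor genes Cd14 and Ly96, and the adaptor genes Myd88 and Ticam1. The tested libraries came from luminal cells, the secretory epithelium of the prostate's glands, of 4 month old C57BL/6 mice that carry a Csf-1 transgene of mouse sequence driven by the probasin promoter of the rat, a promoter that works in prostate epithelium. These libraries carry PB in their titles and are called CSF1 here. The control libraries came from luminal cells of wild-type (WT) littermates of the same strain and age, and the luminal cells of both groups were isolated by fluorescence-activated cell sorting. Each group had 3 libraries, whose titles begin with the numbers 3, 5 and 8, and they are called replicates 3, 5 and 8 here. The same title codes occur in both groups. What the codes stand for, and whether same-numbered CSF1 and WT libraries share a date, litter or batch, is not stated. The sort markers, the number of transgenic founder lines and whether each library came from 1 animal or from a pool are not stated in these sources, so p-values measure the spread between these libraries. The values are FPKM, fragment counts scaled by transcript length and by library size, summed over the transcripts of a gene, so levels of different genes are compared per length.

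Toll-like receptors recognise molecules typical of microbes or of damaged cells. TLR2, which pairs with TLR1 or TLR6, binds bacterial lipoproteins at the cell surface, TLR4 binds lipopolysaccharide there with MD-2 (the product of Ly96) and CD14, and TLR5 binds flagellin, while TLR3 and TLR7 sit in endosomes and bind double-stranded and single-stranded RNA. MyD88 carries the signal of every mouse Toll-like receptor except TLR3 towards NF-kB, and TRIF (the product of Ticam1) carries that of TLR3 and, from endosomes, of TLR4 towards interferon genes. Epithelial cells and macrophages both use these receptors, and macrophages are rich in TLR2, TLR4 and CD14.

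Transcripts of the overexpressed gene were high in the libraries labelled CSF1. Csf1 had 1082, 1326 and 1678 FPKM in CSF1 replicates 3, 5 and 8, against 1.54, 2.25 and 3.98 FPKM in WT replicates 3, 5 and 8. The luminal keratin gene Krt18 was at 1735, 2001 and 2660 FPKM in CSF1 and at 2055, 2115 and 2666 FPKM in WT, and the epithelial gene Epcam was at 965, 850 and 1046 FPKM in CSF1 and at 631, 612 and 711 FPKM in WT. Markers of other cell types were present as well. Of 20 macrophage and monocyte markers, 8 had a WT mean of at least 1 FPKM. All 8 were higher in CSF1 at a limma adjusted p under 0.05, where 19.7% of the 9945 tested genes with such a WT mean were. Another 11 markers passed the filter on low values only through their CSF1 levels and so had to have the higher mean there. The summed level of the 20 was 918, 1126 and 3675 FPKM in CSF1 replicates 3, 5 and 8, against 21.9, 30.5 and 129 FPKM in WT. None of the 20 was at 0 in every library of a group. CSF1 replicate 8 thus stood apart, and 18 of the 20 markers had their highest CSF1 value there. Neutrophil markers summed to between 1.97 and 34.3 FPKM in CSF1 and to at most 0.133 FPKM in WT, with Ngp and Mpo at 0 in all 6 libraries and Elane at 0 in all 3 CSF1 libraries. The neutrophil genes S100a8 (0.539, 1.68 and 26.8 FPKM in CSF1), S100a9 (0.859, 0.846 and 4.14 FPKM) and Csf3r (0.573, 0.284 and 2.03 FPKM) were above every WT library. Fibroblast and smooth muscle markers summed to between 481 and 759 FPKM in CSF1 and to between 99.98 and 111 FPKM in WT, and basal epithelial markers to between 541 and 850 FPKM in CSF1 and to between 49.4 and 68.6 FPKM in WT. In bulk libraries such as these, fewer cells of a type and less RNA per cell cannot be told apart.

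The genes of the receptor TLR2, the co-receptor CD14 and the adaptor MyD88 were higher in CSF1 luminal libraries, as was the gene of the RNA receptor TLR3. The lipopolysaccharide partner Ly96 was abundant in both groups, whose libraries overlapped, and Ticam1, the gene of the other adaptor, was lower in each CSF1 library than in any WT library without passing the test. Of the 10 members, 8 averaged 1 FPKM or more across the 6 libraries and were among the 10951 genes tested by limma. All 8 also had a WT mean of at least 1 FPKM. Among these 8 members, 4 were higher at a Benjamini-Hochberg adjusted p of 0.05, where 24.9% of all tested genes were and 32.4% were called in either direction. None was lower by limma, where 7.47% of all tested genes were, and no member was lower at an unadjusted p under 0.05 either. At that unadjusted level 6 of the 8 were higher, where 3444 of the 10951 tested genes were higher and 1223 were lower. The median log2 change of the 8 members was 0.82, against 0.17 for all tested genes. In 8 of the 10 members every CSF1 library lay above every WT library, and among the 8 tested members this held for 6, a pattern found in 34.7% of all tested genes. Ticam1 was the 1 member whose CSF1 libraries all lay below the WT libraries, where 13.1% of tested genes did. The share of all genes called lower is the less stable background, since 818 genes were lower in the full comparison but 478 without WT replicate 5, 526 without WT replicate 8 and 485 without both libraries numbered 8.

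**Figure D1:**
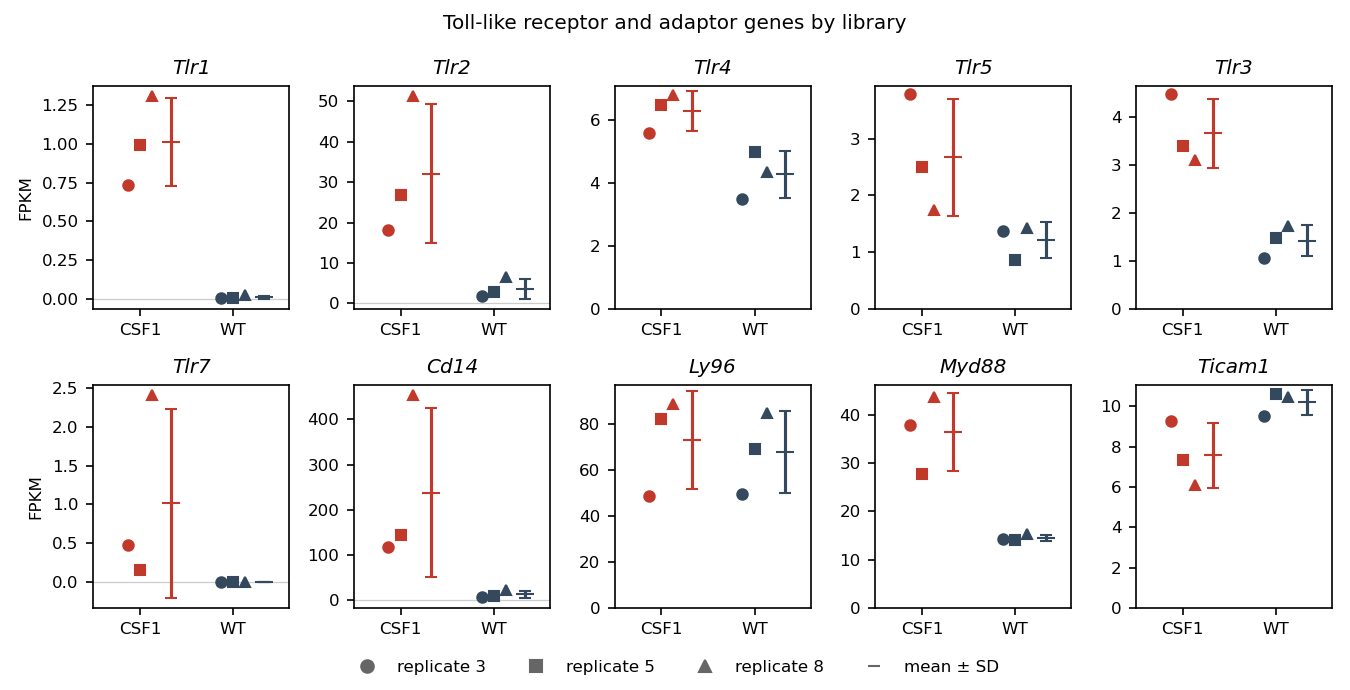
FPKM (vertical axis, linear, a scale of its own for each gene) of the 10 members in CSF1 and WT luminal libraries, with 1 symbol per replicate and mean ± SD beside them (n = 3 per group). Cd14 lay between 118 and 453 FPKM in CSF1 and between 7.81 and 22.3 FPKM in WT, whereas Ly96 overlapped between the groups and Ticam1 was lower in every CSF1 library.

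Tlr2 (chromosome 3, 83836272 to 83841824, minus strand, GRCm38.p6 for this and the other positions), the gene of the bacterial lipoprotein receptor, had 18.1, 26.7 and 51.3 FPKM in CSF1 replicates 3, 5 and 8, against 1.77, 2.75 and 6.42 FPKM in WT replicates 3, 5 and 8. The lowest CSF1 library was above the highest WT library, and replicate 8 was the highest of both groups. The mean was 32.0 ± 17.2 FPKM in CSF1 and 3.64 ± 2.45 FPKM in WT (SD, n = 3 each), 8.79-fold higher. On the log2 scale the change was 2.83 ± 0.43 (SE, limma adjusted p = 0.00152). Among all tested genes, 2.93% had a larger log2 change. The log2 change without both libraries numbered 8 was 2.84 (limma adjusted p = 0.000534).

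Tlr1 (chromosome 5, 64924680 to 64933600, minus strand), the gene of TLR2's partner, was low throughout. It was at 0.736, 0.993 and 1.31 FPKM in CSF1 and at 0.00625, 0.0057 and 0.022 FPKM in WT. The WT libraries held almost no Tlr1 signal, and Cufflinks' upper confidence bound for its main transcript there was at most 0.0703 FPKM, whereas all CSF1 libraries were above 0.7 FPKM. Its mean over the 6 libraries, 0.512 FPKM, was under the filter of 1 FPKM, so it was not tested in the main comparison. With no filter on low values it passed (log2 change 0.98, limma adjusted p = 0.00372). Tlr6, the gene of TLR2's other partner, was also under the filter, at 0.191, 0.347 and 0.249 FPKM in CSF1 and at 0.138, 0.138 and 0.285 FPKM in WT, and the groups overlapped.

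Tlr4 (chromosome 4, 66827551 to 66846581, plus strand), the gene of the lipopolysaccharide receptor, was at 5.59, 6.47 and 6.81 FPKM in CSF1, against 3.49, 5.00 and 4.34 FPKM in WT. The groups did not overlap, but the lowest CSF1 library lay just above the highest WT library. The log2 change of 0.47 ± 0.18 (SE) did not pass (limma adjusted p = 0.0735), and its 95% confidence interval ran from 0.07 to 0.88. It passed under none of 19 alternatives (limma adjusted p from 0.0622 to 0.662), and its log2 change came down to 0.10 with quantile normalization. The ratio of Tlr2 to Tlr4 was 3.23, 4.13 and 7.53 in CSF1 replicates 3, 5 and 8, against 0.506, 0.549 and 1.48 in WT replicates 3, 5 and 8. The lowest CSF1 ratio was above the highest WT ratio, and a scaling factor per library leaves such a ratio as it is.

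Of the co-receptor genes of TLR4, Cd14 was higher and Ly96 did not pass. Cd14 (chromosome 18, 36725064 to 36726815, minus strand), whose product hands lipopolysaccharide to TLR4 and also serves TLR2, had 118, 143 and 453 FPKM in CSF1 replicates 3, 5 and 8, against 7.81, 10.3 and 22.3 FPKM in WT. Every CSF1 library was at least several times above the highest WT library, and CSF1 replicate 8 was far above the other CSF1 libraries. The mean was 238 ± 186 FPKM in CSF1 and 13.5 ± 7.75 FPKM in WT (SD, n = 3 each), 17.7-fold higher. On the log2 scale the change was 3.91 ± 0.52 (SE, limma adjusted p = 0.00077). Without both libraries numbered 8 the log2 change was 3.72 (limma adjusted p = 7.47e-05). Among all tested genes, 1.04% had a larger log2 change than Cd14.

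Ly96 (chromosome 1, 16688456 to 16709605, plus strand) encodes MD-2, the part of the TLR4 receptor that binds lipopolysaccharide directly. It was at 48.9, 82.4 and 88.7 FPKM in CSF1, against 49.7, 69.1 and 85.0 FPKM in WT. In both groups replicate 3 was the lowest and replicate 8 the highest, and the ranges overlapped almost wholly. The log2 change was 0.10 ± 0.26 (SE, limma adjusted p = 0.817), with a 95% confidence interval from -0.51 to 0.70. A p above the threshold does not show equal levels, and these libraries leave room for changes within that interval. Its sign was negative under quantile normalization, median-ratio scaling and rescaling without the 5 most abundant genes. Cd14 stood to Ly96 at a ratio of 2.41, 1.74 and 5.11 in CSF1 and of 0.157, 0.149 and 0.262 in WT. Ly96 was the most abundant of the 10 members in each WT library, while Cd14 was in each CSF1 library. Tlr4 itself stayed at 0.0767 to 0.114 of the Ly96 level in CSF1 and at 0.0511 to 0.0723 in WT.

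Tlr5 (chromosome 1, 182954752 to 182976044, plus strand), the gene of the flagellin receptor, had 3.78, 2.50 and 1.73 FPKM in CSF1 replicates 3, 5 and 8, against 1.36, 0.851 and 1.43 FPKM in WT. The groups did not overlap, but CSF1 replicate 8 lay close to the WT libraries. The log2 change of 0.70 ± 0.25 (SE) did not pass (limma adjusted p = 0.0672, 95% confidence interval from 0.12 to 1.28). It passed without CSF1 replicate 8 (log2 change 0.90, limma adjusted p = 0.0256), without both libraries numbered 8 (0.97, 0.0374) and with array weights (0.92, 0.0111), over a range of limma adjusted p from 0.0111 to 0.535 in the 19 alternatives.

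Of the endosomal receptor genes, Tlr3 was higher and Tlr7 was too low to be tested. Tlr3 (chromosome 8, 45395665 to 45411075, minus strand), the gene of the double-stranded RNA receptor, was at 4.47, 3.40 and 3.10 FPKM in CSF1, against 1.07, 1.48 and 1.72 FPKM in WT. The lowest CSF1 library was above the highest WT library, and CSF1 replicate 8 was the lowest of its group. The mean was 3.66 ± 0.721 FPKM in CSF1 and 1.42 ± 0.329 FPKM in WT (SD, n = 3 each), 2.58-fold higher. On the log2 scale the change was 0.94 ± 0.21 (SE, limma adjusted p = 0.00882). The call was lost with quantile normalization (log2 change 0.49, limma adjusted p = 0.0849) and held in 18 of 19 alternatives. An antisense gene of the GENCODE M21 annotation, Gm45542, shares 381 exon bases with Tlr3, and the library kits do not mark strand, so reads of the 2 genes cannot be told apart there.

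Tlr7 (chromosome X, 167303380 to 167330574, minus strand), the gene of the single-stranded RNA receptor, reached 0.475, 0.162 and 2.40 FPKM in CSF1 replicates 3, 5 and 8, and each WT library lists it at 0. Most of its signal thus lay in CSF1 replicate 8. It was under the filter, and with no filter it did not pass (limma adjusted p = 0.191). The remaining receptor genes were under the filter too. Tlr8 reached 0.0814, 0.142 and 0.925 FPKM in CSF1 and is listed at 0 in each WT library. Tlr13 was at 0.271, 0.194 and 1.45 FPKM in CSF1 and at 0, 0.0225 and 0 FPKM in WT. Both were highest in CSF1 replicate 8, as Tlr7 was. Tlr9, Tlr11 and Tlr12 lay below 0.3 FPKM in every library. With no filter, Tlr12 passed as higher (0.259, 0.142 and 0.17 FPKM in CSF1, listed at 0 in each WT library, log2 change 0.25, limma adjusted p = 0.0129), and Tlr6, Tlr8, Tlr9, Tlr11 and Tlr13 did not.

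Tlr2 and Tlr4 held shares of the receptor transcripts that did not overlap between the groups, with no test run on shares. All Tlr genes in the tables summed to 34.0, 41.1 and 69.6 FPKM in CSF1 replicates 3, 5 and 8, against 7.84, 10.2 and 14.2 FPKM in WT. Tlr2 held 53.2%, 65.1% and 73.7% of this sum in CSF1 and 22.5%, 26.8% and 45.2% in WT. Tlr4 held 16.5%, 15.8% and 9.78% in CSF1 and 44.5%, 48.8% and 30.6% in WT. The shares of Tlr3 (13.2%, 8.27% and 4.46% in CSF1, 13.6%, 14.4% and 12.1% in WT) and Tlr5 (11.1%, 6.09% and 2.49% in CSF1, 17.4%, 8.31% and 10.1% in WT) overlapped between the groups. Tlr4 was the largest share in WT replicates 3 and 5 and Tlr2 in WT replicate 8 and all CSF1 libraries. In both groups replicate 8 had the highest Tlr2 share and the lowest Tlr4 share.

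**Figure D2:**
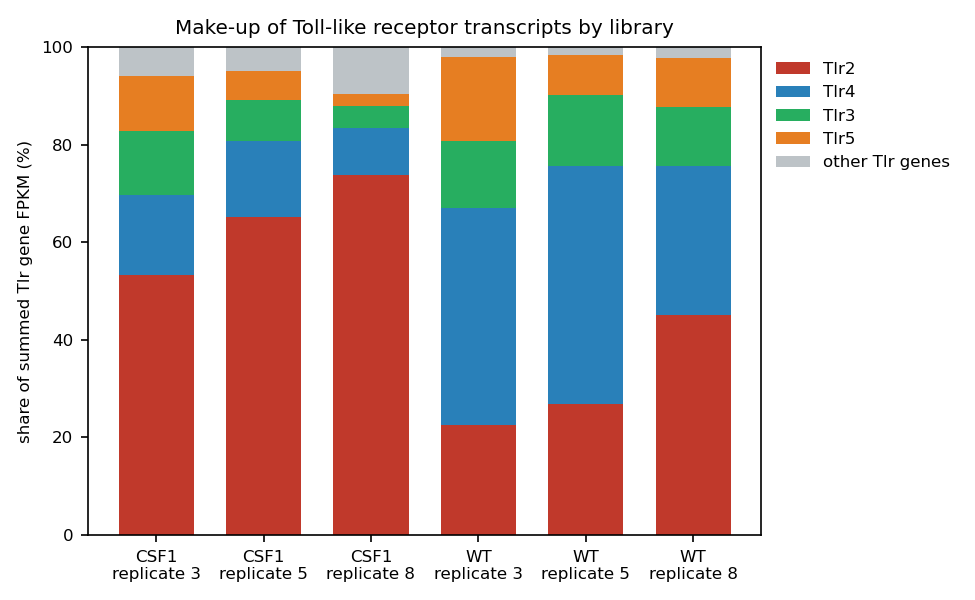
Share of the summed FPKM of all Tlr genes (vertical axis, percent) held by Tlr2, Tlr4, Tlr3, Tlr5 and the other Tlr genes in each CSF1 and WT library. Tlr2 held between 53.2% and 73.7% in CSF1 and between 22.5% and 45.2% in WT.

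Of the adaptor genes, Myd88 was higher and Ticam1 did not pass. Myd88 (chromosome 9, 119335934 to 119340018, minus strand) had 37.8, 27.7 and 43.8 FPKM in CSF1 replicates 3, 5 and 8, against 14.2, 14.0 and 15.3 FPKM in WT. The WT libraries were nearly equal, and every CSF1 library was well above them. The mean was 36.4 ± 8.11 FPKM in CSF1 and 14.5 ± 0.679 FPKM in WT (SD, n = 3 each), 2.51-fold higher. On the log2 scale the change was 1.25 ± 0.18 (SE, limma adjusted p = 0.00111), and 12.2% of tested genes had a larger one. Exons of Myd88 share 290 bases with exons of Acaa1a, a gene of the opposite strand whose product works in peroxisomal fatty acid breakdown. Acaa1a was at 58.4, 72.9 and 72.9 FPKM in CSF1 and at 60.1, 63.0 and 79.4 FPKM in WT, so the groups overlapped for that gene.

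Ticam1 (chromosome 17, 56269462 to 56276767, minus strand) was at 9.29, 7.35 and 6.09 FPKM in CSF1, against 9.49, 10.6 and 10.5 FPKM in WT. The groups did not overlap, though CSF1 replicate 3 lay just under WT replicate 3. The log2 change of -0.40 ± 0.18 (SE) did not pass (limma adjusted p = 0.119, 95% confidence interval from -0.80 to 0.00241). It passed as a fall with quantile normalization (-0.72, limma adjusted p = 0.0138) and with median-ratio scaling (-0.61, limma adjusted p = 0.0224), and its sign was negative in all 19 alternatives (limma adjusted p from 0.0138 to 0.38). Within a library, Myd88 stood to Ticam1 at a ratio of 4.07, 3.77 and 7.19 in CSF1 and of 1.498, 1.32 and 1.46 in WT. The ratio was thus higher in every CSF1 library than in any WT library.

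The median over all tested genes moved with the scaling. Its log2 change was 0.17 for the deposited FPKM, -0.16 after quantile normalization, -0.03 after median-ratio scaling and 0.01 after rescaling without the 5 most abundant genes. The share of called genes that were higher was 77.0% for the deposited FPKM. It was 41.8% after quantile normalization, 54.0% after median-ratio scaling and 59.98% after the rescaling. Relative to the median of all tested genes, the log2 changes were 3.73 for Cd14, 2.66 for Tlr2, 1.08 for Myd88, 0.77 for Tlr3, 0.53 for Tlr5, 0.30 for Tlr4, -0.07 for Ly96 and -0.57 for Ticam1. Cd14, Tlr2 and Myd88 passed in all 19 alternatives each, with log2 changes from 3.31 to 4.31 for Cd14, from 2.04 to 3.23 for Tlr2 and from 0.98 to 1.43 for Myd88. An exact two-sided permutation test gave p = 0.1, the smallest value possible with 3 libraries against 3, for each member except Ly96 (exact permutation p = 0.8).

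**Figure D3:**
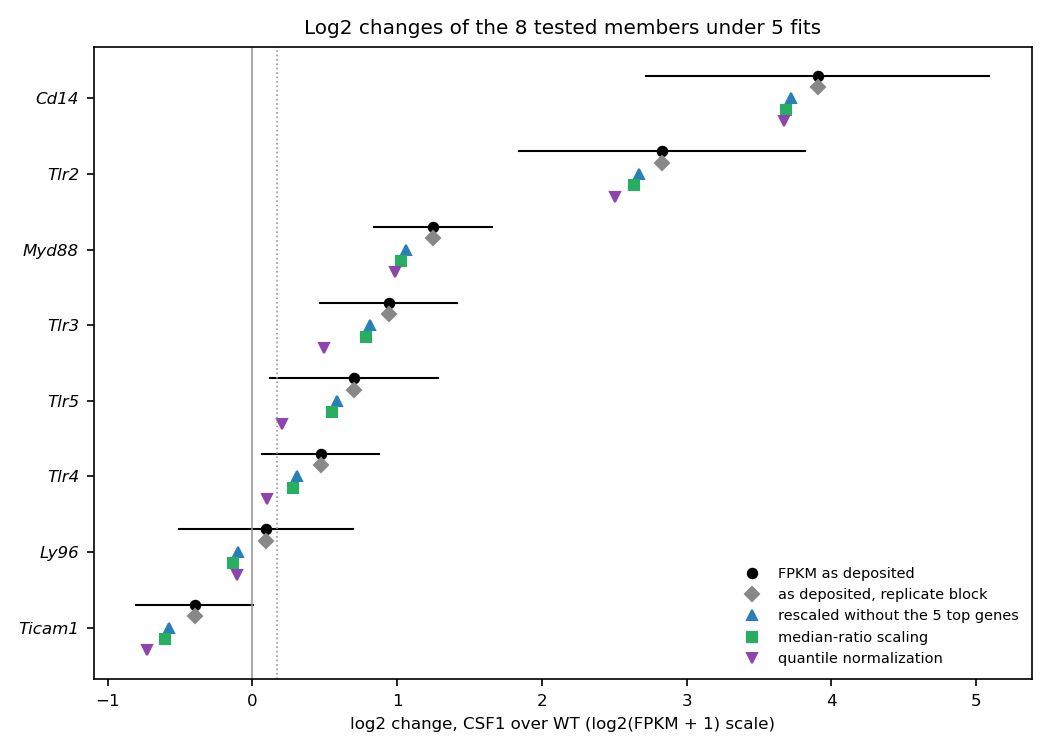
Log2 change of CSF1 over WT on the log2(FPKM + 1) scale (horizontal axis) for the 8 tested members under 5 fits, with the 95% confidence interval of the fit on FPKM as deposited, a solid line at 0 and a dotted line at the median of all tested genes (0.17). Cd14, Tlr2 and Myd88 stayed to the right of 0.9 in every fit shown, whereas Ly96 lay on either side of 0.

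Promoter windows were given by RefSeq (GRCm38.p6) for 6 of the 10 members, each with 250 bases before a start site that the table chose. They were searched on both strands for the NF-kB consensus, for the core of the interferon-stimulated response element (ISRE, GAAA, any 2 bases, then GAAA again), for the AP-1 site TGANTCA and for the PU.1 core GAGGAA, and capitals mark the matches. Sequences are shown for the 4 tested genes with a match. These are the receptor genes Tlr2 and Tlr3 and the adaptor gene Myd88, which were higher, and Ticam1, which did not pass, all from the minus strand. For Tlr2 and Tlr3 only the stretch around the match is given, at chr3:83841762-83841790 and chr8:45410573-45410600, and for Myd88 and Ticam1 the 250 bases at chr9:119340019-119340268 and chr17:56276768-56277017.
Tlr2: aggacacctGGGGAATTCCCacacggagc
Tlr3: gttgtttctGGGAGTTTCCtgcttttga
Myd88: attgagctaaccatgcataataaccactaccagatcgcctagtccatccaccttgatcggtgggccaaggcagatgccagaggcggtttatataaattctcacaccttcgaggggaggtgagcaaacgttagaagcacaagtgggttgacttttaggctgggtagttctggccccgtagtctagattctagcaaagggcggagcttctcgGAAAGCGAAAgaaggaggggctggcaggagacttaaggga
Ticam1: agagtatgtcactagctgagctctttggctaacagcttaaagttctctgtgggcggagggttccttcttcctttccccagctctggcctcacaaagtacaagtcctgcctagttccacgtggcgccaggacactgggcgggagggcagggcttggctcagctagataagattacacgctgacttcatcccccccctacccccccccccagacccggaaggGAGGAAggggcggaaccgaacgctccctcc
Positions are counted back from the start of the transcript that the tables measure, with -1 the base before it. Overlapping matches to the NF-kB consensus, read on both strands, lay between -173 and -163 for Tlr2, and 1 match lay between -52 and -43 for Tlr3. The ISRE core lay between -18 and -9 for Myd88 and the PU.1 core between -30 and -25 for Ticam1. Other annotated transcripts start further upstream, so 216 bases of the Tlr2 window and all 250 of the Tlr3 window lie within the RefSeq gene, and the Tlr3 match lies in a GENCODE exon. Of the Tlr3 window, 159 bases lie within the span of the measured transcript, and of the Myd88 window 22 bases. No window of the 4 held an AP-1 site. Of the windows not shown, 1 of Tlr1 held the PU.1 core between -23 and -18, counted from the start site of that window. The other Tlr1 window and the Tlr5 window held no match. In the 250 bases before the start in all 32851 windows of the table, 3.9% held the NF-kB consensus, 2.98% the ISRE core, 6.75% the AP-1 site and 23.25% the PU.1 core. A match describes letters and does not show binding.

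The members also differed in how they varied among the CSF1 libraries. Cd14 in CSF1 replicate 8 was 3.83 times its level in CSF1 replicate 3, Tlr2 was 2.83 times and Tlr7 was 5.05 times that level, beside 4.00 times for the summed macrophage markers. The ratio of Cd14 to the macrophage lysozyme gene Lyz2 was 0.351, 0.359 and 0.33 in CSF1 replicates 3, 5 and 8, against 1.17, 1.02 and 0.362 in WT. Its ratio to the CSF1 receptor gene Csf1r, also a macrophage marker, was 8.60, 7.93 and 11.2 in CSF1, against 18.3, 38.8 and 27.8 in WT. The ratio of Tlr2 to Lyz2 was 0.0537, 0.0669 and 0.0374 in CSF1, against 0.264, 0.273 and 0.104 in WT, and to Csf1r it was 1.32, 1.48 and 1.27 in CSF1, against 4.13, 10.4 and 7.99 in WT. The ratio of Myd88 to Csf1r was 2.76, 1.53 and 1.09 in CSF1, against 33.3, 52.9 and 19.0 in WT. Each of these ratios was lower in every CSF1 library than in any WT library. For Cd14 to Lyz2, WT replicate 8 came close to CSF1. Mean Csf1r rose 48.2-fold and mean Lyz2 26.9-fold, more than Cd14 (17.7-fold), Tlr2 (8.79-fold) or Myd88 (2.51-fold). Not every macrophage marker of the list did so. Cd68 (13.1-fold), Mrc1 (8.18-fold) and Cd163 (3.83-fold) rose less than Cd14, and Mrc1 and Cd163 also less than Tlr2, while the other markers rose more than Cd14. The lower ratios restate the larger rise of Csf1r and Lyz2 and do not show which cells held the transcripts. WT levels of Csf1r were only 0.428, 0.265 and 0.803 FPKM, so the WT ratios to Csf1r rest on a small denominator. Among the CSF1 libraries, Tlr3, Tlr5 and Ticam1 had the opposite order to Cd14 and Tlr2. CSF1 replicate 8 was at 0.694, 0.458 and 0.656 of the Tlr3, Tlr5 and Ticam1 levels in CSF1 replicate 3. Myd88 in CSF1 replicate 8 was 1.16 times and in CSF1 replicate 5 was 0.733 times its level in CSF1 replicate 3. The part of macrophage RNA in these levels was not tested.

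**Figure D4:**
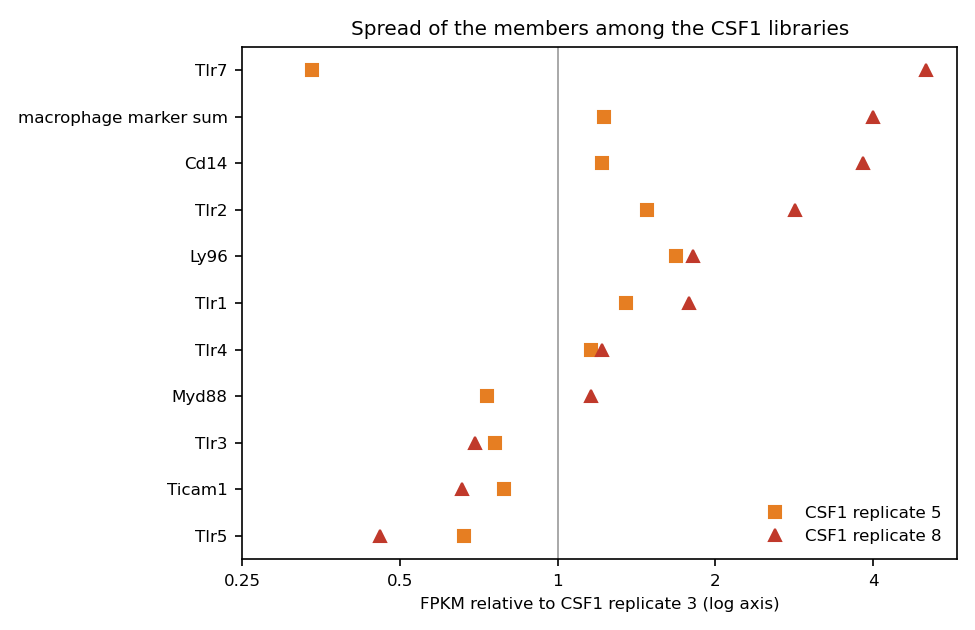
FPKM of the 10 members and of the summed macrophage markers in CSF1 replicates 5 and 8 relative to CSF1 replicate 3 (horizontal axis, log scale, with a line at 1). Tlr7, the macrophage marker sum and Cd14 were at least 3.83 times as high in replicate 8, and Tlr3, Ticam1 and Tlr5 were below their replicate 3 level in both.

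A single transcript was listed for each of Tlr2, Tlr3, Tlr4, Tlr5, Cd14, Myd88 and Ticam1, and the shorter of the 2 Ly96 transcripts was listed at 0 in all 6 libraries. Tlr1 had 2 transcripts with different starts, of which the longer one had 0.323, 0.25 and 0.357 FPKM in CSF1 and was listed at 0 in every WT library. It made up 30.6% of the gene's CSF1 level. Of the 5 Tlr7 transcripts, 3 were above 0 in any library. Fitted over 12785 transcripts, of which 19.7% were higher, the same 4 members were higher by limma. The Tlr3 transcript did not pass with the replicate block (limma adjusted p = 0.0501, against 0.0196 without it). Cufflinks' own confidence bounds had a half-width between 1.19% (Cd14) and 21.3% (Tlr5) of FPKM for the main transcripts of the 8 tested members. In each CSF1 library the half-width was smaller than the SD between the CSF1 libraries for all 8. In each WT library it was larger than the SD between the WT libraries for Myd88 and Ticam1, and smaller for the other tested members.

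Genes around the members were counted where their WT mean was at least 1 FPKM, since a gene that passed the filter through its CSF1 level alone had to have the higher mean there. Among the 9945 such genes of all those tested, 19.7% were higher and 8.23% lower, with a median log2 change of 0.12. Of 11 genes for other co-receptors, adaptors and trafficking proteins, 6 were counted, and 3 were higher, 1 was lower and 2 did not pass, with a median log2 change of 0.43. The other 2 tested genes, Ly86 and Cd36, entered through CSF1. Ly86, which encodes the MD-1 partner of RP105 in B cells and macrophages, was at 20.1, 21.6 and 61.4 FPKM in CSF1, against 0.2, 0.328 and 0.563 FPKM in WT (log2 change 4.52, limma adjusted p = 8.18e-05). Lbp, whose product passes lipopolysaccharide to CD14, was at 54.2, 41.6 and 44.5 FPKM in CSF1, against 3.79, 2.53 and 3.85 FPKM in WT (log2 change 3.45, limma adjusted p = 7.65e-06). Unlike Cd14, Lbp had its highest CSF1 value in replicate 3. The scavenger receptor gene Cd36 was higher as well (log2 change 2.59, limma adjusted p = 0.0018). Hsp90b1, which encodes the folding chaperone gp96 that most Toll-like receptors need, was lower, at 514, 440 and 326 FPKM in CSF1 against 855, 696 and 730 FPKM in WT (log2 change -0.85, limma adjusted p = 0.00803).

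Signalling enzymes act downstream of the adaptors. Of 20 kinase and ubiquitin ligase genes, all tested, 7 were higher, 0 were lower by limma and 13 did not pass, with a median log2 change of 0.33. All 20 had a WT mean of at least 1 FPKM, and of all such genes 19.7% were higher and 8.23% lower. With quantile normalization 4 were higher and 3 lower. At an unadjusted p under 0.05, 8 were higher and 1 was lower, where 3444 of the 10951 tested genes were higher and 1223 were lower. Map3k8, which encodes the kinase TPL2 of the ERK branch, was at 14.8, 18.5 and 21.3 FPKM in CSF1, against 5.91, 4.70 and 8.91 FPKM in WT (log2 change 1.38, limma adjusted p = 0.00242). Irak2, a kinase gene of the MyD88 complex, was at 6.31, 7.51 and 12.3 FPKM in CSF1, against 2.89, 3.22 and 3.43 FPKM in WT (log2 change 1.17, limma adjusted p = 0.00578). Ikbke, the gene of an interferon-inducing kinase, rose by a log2 change of 1.17 (limma adjusted p = 0.00514). In each of these 3 genes, named for having the largest rises of the list, every CSF1 library lay above every WT library. This held for 10 of the 20 genes, the other 10 overlapping between the groups, and for 34.7% of all tested genes.

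Negative regulators restrain the same pathway. Of 21 such genes, 17 were counted, and 8 were higher, 1 was lower and 8 did not pass, with a median log2 change of 0.44. Tnip3, Irak3 and Inpp5d entered the test through CSF1. Tnip3, which encodes a partner of A20, was at 13.1, 11.4 and 46.3 FPKM in CSF1, against 0.0705, 0.153 and 0.145 FPKM in WT (log2 change 4.17, limma adjusted p = 0.000262). Tnfaip3, the gene of A20 itself, a ubiquitin-editing inhibitor of NF-kB signalling, was at 28.7, 31.3 and 40.3 FPKM in CSF1, against 1.53, 4.17 and 4.43 FPKM in WT (log2 change 3.04, limma adjusted p = 0.000157). Irak3, which encodes the inhibitory IRAK-M, was at 6.09, 8.80 and 7.58 FPKM in CSF1, against 0.477, 0.726 and 0.907 FPKM in WT (log2 change 2.31, limma adjusted p = 9.26e-05). All CSF1 libraries were above all WT libraries for each of these 3 genes, which were named for having the largest rises of the list. The same pattern held for 14 of the 20 tested negative regulators, those entering through CSF1 included, and for 34.7% of all tested genes. The inhibitor genes Sigirr and Tollip did not pass. Sigirr was at 12.1, 10.6 and 9.96 FPKM in CSF1, against 9.07, 11.4 and 11.6 FPKM in WT (limma adjusted p = 0.921). Tollip was at 29.1, 34.2 and 28.3 FPKM in CSF1, against 26.5, 23.2 and 26.3 FPKM in WT (log2 change 0.26, limma adjusted p = 0.191).

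Of 15 transcription factor genes of the pathway, 14 were counted, and 11 were higher, 1 was lower and 2 did not pass, with a median log2 change of 1.71. Irf5 entered the test through CSF1. Irf7, a factor of interferon induction below TLR7 and other receptors, was at 96.4, 49.4 and 99.8 FPKM in CSF1, against 7.51, 6.48 and 6.32 FPKM in WT (log2 change 3.35, limma adjusted p = 5.06e-05). Irf5, which acts below MyD88 in myeloid cells, was at 5.07, 6.42 and 12.1 FPKM in CSF1, against 0.19, 0.159 and 0.0558 FPKM in WT (log2 change 2.89, limma adjusted p = 0.00018). Nfkbiz, an inducible NF-kB cofactor, rose by a log2 change of 2.72 (limma adjusted p = 0.000203). Atf3, which is counted both here and among the negative regulators, was lower at 1289, 1067 and 1023 FPKM in CSF1, against 1642, 1694 and 1657 FPKM in WT (log2 change -0.57, limma adjusted p = 0.012). This call was lost with no filter, without CSF1 replicate 5 and without WT replicate 5. Of 25 listed target genes in the tables, 18 were counted and all 18 were higher, with a median log2 change of 3.62. Ccl20, Saa3, Ifnb1, Il12b and Irg1 entered the test through CSF1, and Ccl20 was at 311, 368 and 1006 FPKM in CSF1, against 0.375, 0.243 and 1.38 FPKM in WT. With no filter 20 of 24 target genes were higher, and with quantile normalization 20 of 23. The summed macrophage markers were higher in the same libraries (918 to 3675 FPKM in CSF1, 21.9 to 129 FPKM in WT), and their part in these counts was not tested.

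**Figure D5:**
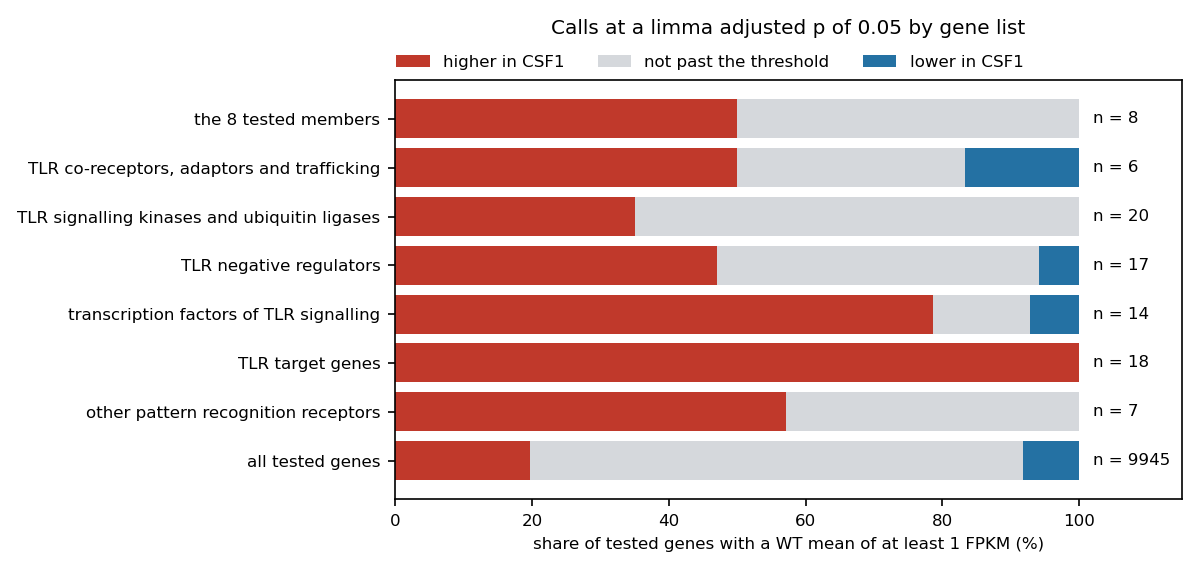
Share of tested genes with a WT mean of at least 1 FPKM (horizontal axis, percent) called higher, not past the threshold or called lower in CSF1 at a limma adjusted p of 0.05, for the 8 tested members, 6 related gene lists and all 9945 such genes, with the number of genes at the right. Of the target genes 18 of 18 were higher and of the signalling enzyme genes 7 of 20.

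Over the 6 libraries, the genes most like Tlr2 in level and pattern were Hcar2, Tpm2 and Rbms1, whose log2(FPKM + 1) differed from that of Tlr2 by a root mean square of 0.34, 0.35 and 0.39. Those most like Cd14 were Krt17, Ccl4 and Wfdc17, at 0.50, 0.65 and 0.71. Krt17, a keratin gene of basal and stressed epithelium, had 101, 131 and 300 FPKM in CSF1 replicates 3, 5 and 8, against 13.1, 18.3 and 22.2 FPKM in WT. The 6 points of each gene share the libraries and the 2 groups.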

How the data were processed

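RNA of sorted mouse prostate luminal cells was profiled in 3 CSF1 and 3 WT libraries. A SMART-Seq v4 kit was used for cDNA per the labels' protocols, and both Nextera XT and TruSeq DNA kits are named for the library step. Per the submitters' processing notes, the authors used bcl2fastq 1.8.3, TopHat and Cufflinks on mm10, with TopHat and Cufflinks versions not given in the sources used here. The authors deposited 1 table of 34535 RefSeq transcripts per library with FPKM and its confidence bounds, per the file headers. The deposited coverage column is a signal, the mean read depth of a transcript, and its ratio to FPKM was 4.17 to 5.01 in CSF1 and 2.72 to 3.50 in WT, so the CSF1 libraries were deeper. Fragment totals are not given, so no counting interval could be made.

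FPKM were summed per gene symbol. The 9 genes with a failed or skipped estimate by Cufflinks in any library were left out, as were genes with a mean under 1 FPKM. The remaining 10951 genes were compared as log2(FPKM + 1), which understates changes of low genes, by limma 3.58.1 in R 4.3.3 with an intensity trend, two-sided, with Benjamini-Hochberg adjustment over all of them. The script was tested on simulated data. Same-numbered CSF1 and WT libraries deviated together from their group means (correlations 0.257, 0.111 and 0.182 over genes for numbers 3, 5 and 8), so a fit with the number as a block was made too. Gene coordinates are from RefSeq (GRCm38.p6) and exon overlaps from GENCODE M21 on the same build. The members and lists were chosen with earlier results of these data known. All members were named, and of each list the genes past the threshold with the largest changes, plus any negative regulator or other Tlr gene. The other sensor genes that were counted as higher were named as well. Alternatives covered pseudocounts of 0.1 and 5, filters, scalings, weights, a robust fit and leaving out each library.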

Additional observations from a re-analysis of the deposited data

How the results depend on the processing

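The number of members called higher was 4 in the main comparison, between 3 (quantile normalization, without Tlr3) and 5 in the alternatives, and 4 to 5 when 1 library was left out. It was 5 without CSF1 replicate 8 and without both libraries numbered 8, an alternative chosen after seeing the data. The number called lower was 0, and 1 (Ticam1) with quantile normalization and 1 with median-ratio scaling. The sign of Ly96, never past the threshold, turned to a log2 change of -0.11 with quantile normalization, -0.13 with median-ratio scaling, -0.10 with rescaling and -0.018 with array weights, and ran from -0.11 to 0.36 when 1 library was left out. With the replicate block, 2883 genes were higher and 890 lower, 4 members were higher, and no call of a member or of a pathway list gene changed; the Tlr3 transcript lost its call (3 member transcripts higher, against 4), and 5 luminal markers were higher, against 4. Over all genes, 1694 were higher with quantile normalization against 2731 in the main comparison. The number lower, 818, became 2362 with quantile normalization, 1757 with median-ratio scaling, 1433 with rescaling and 485 without both libraries numbered 8, and between 478 and 850 when 1 library was left out. Of the pathway genes together, 66 were higher and 2 lower in the main comparison, with 1 lower without a filter, 6 lower with quantile normalization and 1 to 3 lower when 1 library was left out; both totals include genes tested only through their CSF1 levels. The cause of these shifts was not tested. FPKM without fragment totals limits the statements on Tlr1 and Tlr7, which lie near 0 in WT.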

Other observations

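Other sensors of microbial molecules were measured beside the Toll-like receptors. Of 15 genes in the tables, 7 had a WT mean of at least 1 FPKM, and 4 of these were higher in CSF1, 0 were lower by limma (also 0 at an unadjusted p under 0.05) and 3 did not pass. Of all such genes, 19.7% were higher and 8.23% lower by limma. At the unadjusted level 1223 of the 10951 tested genes were lower. With quantile normalization 1 gene of the list was lower. The 4 genes with a WT mean of at least 1 FPKM that were higher were Tmem173, Dhx58, Ddx58 and Ifih1. Tmem173 was at 105, 111 and 154 FPKM in CSF1, against 18.3, 22.2 and 31.5 FPKM in WT (log2 change 2.33, limma adjusted p = 0.000145). Clec7a, Zbp1, Clec4e and Nlrp3 passed the filter on low values only through their CSF1 levels and so had to have the higher mean there. Clec7a, which encodes the fungal glucan receptor Dectin-1 of myeloid cells, reached 36.8, 28.0 and 93.3 FPKM in CSF1 replicates 3, 5 and 8, against 0, 0 and 0.998 FPKM in WT (log2 change 5.22, limma adjusted p = 8.18e-05). Zbp1, the gene of a sensor of Z-form nucleic acid, was at 11.8, 3.91 and 15.0 FPKM in CSF1, against 0.212, 0 and 0 FPKM in WT (log2 change 3.23, limma adjusted p = 0.000557). Clec4e, which encodes the myeloid receptor Mincle, was at 3.12, 8.17 and 38.6 FPKM in CSF1, against 0.204, 0.186 and 1.61 FPKM in WT (log2 change 2.88, limma adjusted p = 0.0162). Clec7a and Clec4e were highest in CSF1 replicate 8, the library with the highest macrophage marker sum (3675 FPKM).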
